A study of Mus musculus with 18 samples.

Results

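The comparison described here is AOS given without the high fat diet label, 3 kidney libraries of mice labelled AOS 10 mg/kg against 3 libraries of mice labelled control, which makes 6 of the 18 libraries in the series. The 6 were chosen by their treatment labels alone. All mice were ICR, an outbred strain, aged 10 weeks, and RNA came from kidney frozen in liquid nitrogen. AOS is written as in the labels, which give no full name for it. The labels name no diet for either group, and no route, duration, sex or hour of collection. The other 12 libraries come from mice on a high fat diet (HFD), alone, with AOS at the same dose, or with faecal microbiota transplantation (FMT), in 4 groups of 3. Nothing in the labels says that the 3 libraries of a group are separate animals, so a p-value here reflects sample-to-sample spread only, some or all of which could be technical. One control library, replicate 3, stood apart from the rest. The main counts and many of the single-gene differences are therefore given with and without it.

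The kidney filters blood in the glomerulus and recovers most of the filtrate in the proximal tubule, whose cells burn fatty acids and break down amino acids. The loop of Henle, distal tubule and collecting duct then adjust salt, calcium and acid. Kidney cells also run a circadian clock, in which Arntl and Clock switch on their own repressors (Per, Cry and Nr1d genes), so that activators and repressors peak at different hours of the day. In bulk tissue, fewer cells of a type and less RNA per cell cannot be told apart.

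Values are the normalized signal that the authors deposited, with no unit stated, and how many reads lie behind them is unknown. From the most common ratio of low values between each library and AOS replicate 1, the relative depth was 0.891 in control replicate 1 and 0.89 in control replicate 3. It was 0.955 to 1.039 in the other 16 libraries, with AOS replicate 1 set to 1. The ratio rested on 550 genes in control replicate 3 and on 970 to 1184 in the other libraries set against AOS replicate 1. Across genes, the 5 libraries without control replicate 3 correlated at r = 0.987 to 0.993. Kap, an androgen-dependent transcript of the mouse proximal tubule, took 20.35%, 21.51% and 21.65% of the summed signal in AOS replicates 1, 2 and 3, 21.2% and 20.89% in control replicates 1 and 2, and 2.48% in control replicate 3. The 11 adrenal cortex genes summed to 66.4 to 69.42 in the AOS libraries, 68.55 and 66.81 in control replicates 1 and 2, and 1100 in control replicate 3. Star, the cholesterol carrier that defines steroid-making cells, was at 1.01, 0.91 and 1.08 with AOS. Of the 13 tubule injury genes, the sum was 492.9 to 541.7 with AOS, 604.3 and 813.3 in control replicates 1 and 2, and 3122 in control replicate 3. The kidney label held in all 6 libraries, since the 21 proximal tubule genes summed to 14330, 15610 and 14440 with AOS and to 14210, 14440 and 8909 in the controls.

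A second set of transcripts split the groups themselves. Prm1, Prm2, Tnp1 and Tnp2, which encode the protamines and transition proteins that pack sperm DNA, were listed at 0 in all 3 AOS libraries and summed to 26.74, 26.07 and 37.13 in the controls. Among the 12 HFD libraries only HFD replicates 1 and 2 had them above 1, with sums of 25.15 and 24.81. AOS and the presence of these transcripts therefore cannot be told apart in this comparison. Transcripts of fat cells varied within both groups, with 13 fat genes summing to 151.4, 192.8 and 818.3 with AOS and 802, 412.5 and 184.7 in the controls. Of the 12 tested, 1 had a positive log2 difference of AOS minus control (median -0.27, against -0.09 for all genes). Without control replicate 3, 0 were positive (median -0.79, against -0.01). In either fit 0 had an unadjusted p under 0.05. The tissue that the fat transcripts came from was not tested. The 17 interferon genes summed to 94.16, 77.95 and 499.7 with AOS and 160.8, 112.7 and 325.2 in the controls. AOS replicate 3 was thus the highest of the 6 libraries on both lists.

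**Figure D1:**
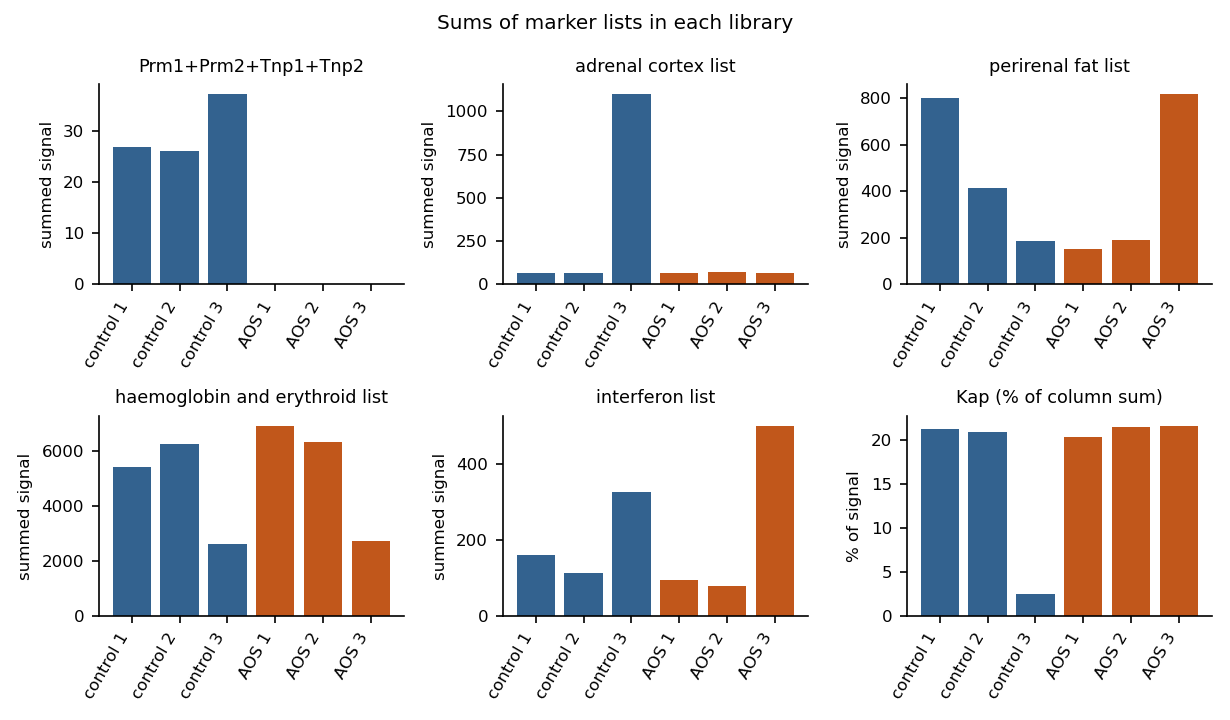
Summed normalized signal of 5 marker sets, and Kap as a percentage of the column sum, 1 bar for each control (blue) and AOS (orange) library. Sperm DNA packing genes are at 0 in the 3 AOS libraries, control replicate 3 alone has a high adrenal cortex sum (1100) and a low Kap share (2.48%), and AOS replicate 3 has the highest fat (818.3) and interferon (499.7) sums.

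With AOS, limma's test at an adjusted p of 0.05 called 4 of 12031 genes in the fit of all 18 libraries, 0.0332% of those tested. Mov10 rose (1 gene, 0.00831%), and Dap, Oaz3 and Prm1 fell (3 genes, 0.0249%). Mov10 is an RNA helicase that acts against viruses and retrotransposons, and Dap is a small protein that restrains autophagy. Oaz3 is an inhibitor of polyamine synthesis made in sperm cells, and Prm1 is a protamine. Leaving control replicate 3 out, the same test called 0 genes (0% of 12031), with a smallest adjusted p of 0.0617, for Mov10, while 1043 genes (8.67%) had an unadjusted p under 0.05.

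Mov10 (chromosome 3, 104794836 to 104818563, minus strand, GRCm38) stood at 10.54, 9.95 and 11.31 in AOS replicates 1, 2 and 3 and at 6.48, 6.85 and 6.94 in control replicates 1, 2 and 3. The groups did not overlap, and control replicate 3 lay with the other control libraries. Its difference was 0.58 on the log2(signal + 1) scale (SE 0.08, limma adjusted p = 0.0327), and 0.60 without control replicate 3 (adjusted p = 0.0617). Beside it, the interferon sums were 94.16, 77.95 and 499.7 with AOS and 160.8, 112.7 and 325.2 in the controls, and their part in the difference was not tested. On the high fat diet, a comparison that shares no library with this one, Mov10 was at 7.56, 8.12 and 7.57 without AOS and at 11.19, 10.45 and 11.04 with it. That difference was 0.44 (SE 0.08, limma adjusted p = 0.0233), in a contrast where 99 genes (0.823%) were called, and it was looked up after Mov10 had been called on the control side. HFD replicate 3, which has none of the sperm DNA packing transcripts, had 7.57, between HFD replicates 1 and 2. That is 1 library, and in AOS against control these transcripts cannot be told apart from AOS, for Mov10 as well. Among the transplant libraries, Mov10 was at 8.69, 8.73 and 9.61 in HFD+AOS-FMT and at 9.05, 10.93 and 8.5 in HFD+control-FMT, whose label names no AOS. These groups overlapped, and all their libraries were above the HFD libraries without AOS. HFD+control-FMT replicate 2 lay inside the range of the AOS libraries (9.95 to 11.31), and replicates 1 and 3 lay below it.

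Dap (chromosome 15, 31224314 to 31274341, plus strand) stood at 28.65, 25.67 and 29.80 with AOS and at 44.15, 41.05 and 50.76 in the controls. It fell by 0.67 on the log2 scale (SE 0.10, limma adjusted p = 0.0475), and the difference was -0.59 without control replicate 3 (adjusted p = 0.098). The 12 HFD libraries lay between 20.79 and 35.01, so that the 3 controls were above all other 15 libraries, and AOS was inside the range of the rest. Cyp4a12b, a fatty acid hydroxylase, also had all 3 controls above the other 15 libraries, without passing. It was at 4.04, 2.96 and 1.86 with AOS, at 7.83, 6.40 and 10.90 in the controls and at 1.18 to 3.46 in the 12 HFD libraries. Its log2 difference was -1.26 (limma adjusted p = 0.0876), and -1.07 without control replicate 3 (adjusted p = 0.195). Its reads cannot be separated with certainty from those of the other Cyp4a copies.

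Oaz3 (chromosome 3, 94432414 to 94443915, minus strand) was listed at 0 in the 3 AOS libraries and at 2.33, 2.8 and 3.55 in the controls (limma adjusted p = 0.0327, and 0.0936 without control replicate 3). Prm1 (chromosome 16, 10796326 to 10805839, minus strand) was listed at 0 with AOS and at 9.07, 9.44 and 14.51 in the controls (adjusted p = 0.0499, and 0.152 without control replicate 3). Both were listed in HFD replicates 1 and 2 as well, Oaz3 at 1.94 and 2.32 and Prm1 at 8.08 and 7.84. They belong to a list of 56 germ cell genes in the table, of which 39 had all 3 controls above all 3 AOS libraries and 0 had the opposite order. Of the 12031 genes tested, 13.2% had groups that did not overlap (3.07% with AOS above, 10.1% with AOS below). Of the 56 genes, 28 were listed at 0 in every AOS library, and 24 of these were above 0 in every control. Only 14 of the 56 passed the filter on low values, so the count of 39 and the shares over tested genes cover unlike sets. Of the 14, 11 had all 3 controls above all 3 AOS libraries and 0 had the opposite order. Some of the 14, such as Smcp and Odf2, passed in the AOS libraries as well, and others, such as Prm1, only through the libraries in which they were high. Their counts therefore describe the list and are no support for it. Those not called included Tnp2 at 7.15, 7.33 and 11.13 in the controls (adjusted p = 0.0504) and Ldhc, a lactate dehydrogenase of sperm, at 1.20, 1.47 and 2.01.

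**Figure D2:**
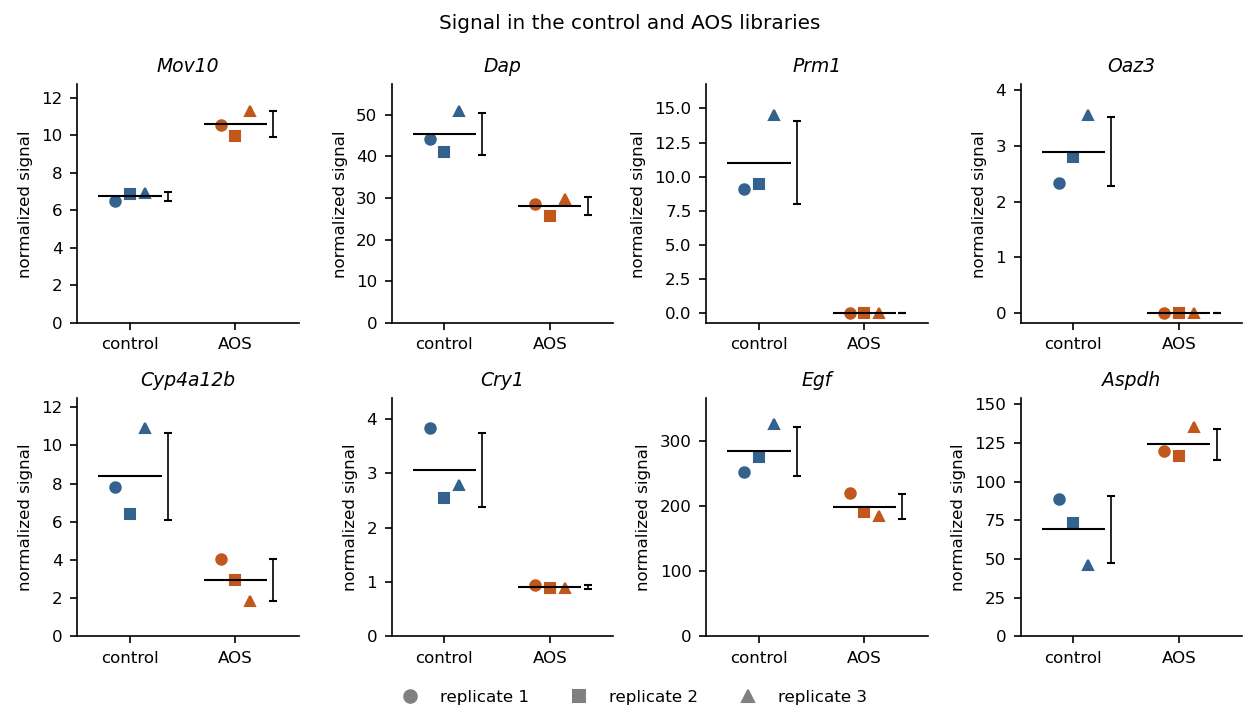
Normalized signal of 8 genes in the 3 control (blue) and 3 AOS (orange) libraries, with the group mean as a line and the SD as a bar beside it. Mov10, Dap, Prm1 and Oaz3 passed the test over all genes and Cyp4a12b, Cry1, Egf and Aspdh did not; in all 8 genes the groups are apart.

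Below the threshold, the differences leaned towards lower values with AOS, and control replicate 3 set much of that lean. Unadjusted p was under 0.05 for 1529 genes (12.7%), 308 higher (2.56%) and 1221 lower (10.1%). In the fit that left it out, the 1043 genes were 521 higher (4.33%) and 522 lower (4.34%). The median log2 difference over all tested genes was -0.09 with it and -0.01 without it, and quantile normalization brought the first to 0.01. Values below are differences as deposited, so that a median near -0.09 is that of all genes.

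Among the genes with the largest differences and no overlap between the groups, most of those higher with AOS were lowest in control replicate 3. Acy3, an aminoacylase, was at 5737, 4455 and 5818 with AOS and at 4331, 4273 and 1024 in the controls, and its log2 difference went from 0.99 to 0.30 without control replicate 3. Akr1c14, Lipo3, Ces1f, Amacr and Ace, the angiotensin converting enzyme, had the same order, with control replicate 3 lowest. Their differences went from between 0.71 and 0.97 to between 0.16 and 0.46. Pzp, a protease inhibitor, and the plasma protein gene Hrg also had control replicate 3 lowest. Aspdh, an aspartate dehydrogenase, kept more of its difference, at 119.88, 116.76 and 135.54 with AOS against 88.60, 73.11 and 45.99 (log2 difference 0.88, and 0.61 without control replicate 3, limma adjusted p = 0.182 and 0.216).

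The genes with the largest differences in the other direction were mostly highest in control replicate 3, and some were high in 1 further control library. Cyp4a14, a fatty acid hydroxylase induced by PPAR alpha, was at 1.54, 1.15 and 1.23 with AOS and at 8.56, 2.42 and 227.20 in the controls. Cdkn1a, a cell cycle inhibitor, was at 5.20, 3.73 and 4.62 against 14.92, 7.11 and 82.60, and C3, the central complement component, at 7.29, 8.98 and 17.51 against 29.12, 20.67 and 110.12. Without control replicate 3 the log2 difference of Cyp4a14 went from -3.09 to -1.31, and that of C3 from -1.855 to -1.148. Hdc, which makes histamine, was near 1 with AOS (1.00, 1.18 and 1.05) and at 80.15, 2.97 and 68.54 in the controls, so that 2 control libraries were high and 1 was not. Ftcd, an enzyme of histidine breakdown, had the same order, at 19.42, 4.54 and 21.79 in the controls and 3.37 to 3.83 with AOS. The metallothioneins Mt1 and Mt2 were high in control replicate 3 alone (1491 and 556.67), and their differences went from -1.15 and -1.16 to -0.35 and -0.19 without it. None of these genes passed (limma adjusted p of 0.31 to 0.393).

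**Figure D3:**
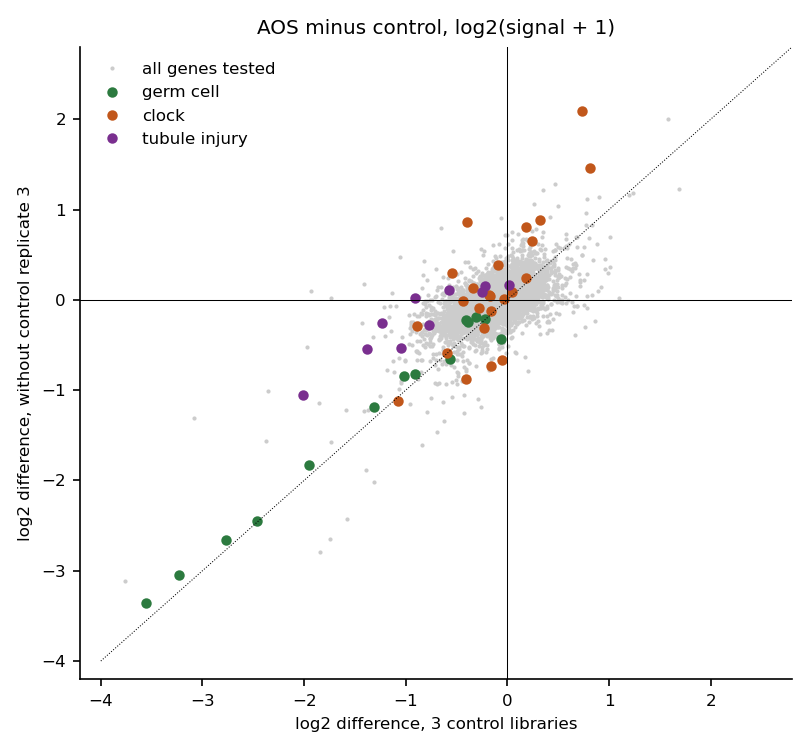
Log2 difference of AOS minus control for every gene tested (grey points, 1 gene outside the axes), with all 3 control libraries on the horizontal axis and without control replicate 3 on the vertical axis; germ cell, clock and tubule injury lists are coloured and the dotted line marks equal values. Germ cell genes lie near the line, tubule injury genes lie above it because they are less negative without control replicate 3, and several clock genes have opposite signs on the 2 axes.

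Without control replicate 3, clock genes were among those most apart, and 0 of the 24 tested passed in either fit. The output regulator Dbp, a D-box activator (chromosome 7, 45705088 to 45710203, plus strand), was at 25.98, 36.46 and 11.51 with AOS, at 2.76 and 6.90 in control replicates 1 and 2, and at 90.60 in control replicate 3. Its log2 difference was 2.10 without control replicate 3 (SE 0.64, limma adjusted p = 0.363) and 0.74 with it (adjusted p = 0.685). AOS lay between the control libraries, above 2 and below 1. The labels give no hour of collection, so that AOS and the hour cannot be told apart for any of these genes.

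The activators Arntl and Npas2 and most repressors of the loop lay on opposite sides of control replicates 1 and 2, with Cry1 an exception described below and Per2 overlapping. Arntl was at 6.75, 4.59 and 8.24 with AOS, at 12.54 and 10.05 in control replicates 1 and 2 and at 2.71 in control replicate 3. Npas2, its partner in place of Clock, was at 5.19, 3.49 and 6.25, then 10.22 and 6.71, then 1.6. Both were lower with AOS than in 2 control libraries and higher than in the third. Nr1d1, the repressor REV-ERB alpha, was at 37.68, 31.89 and 18.97 with AOS, at 7.57 and 12.34 in control replicates 1 and 2 and at 40.16 in control replicate 3 (log2 difference without the last 1.46, limma adjusted p = 0.306). Nr1d2, Per3, Cry2 and Ciart, which are repressors of the loop or belong to it, had the same order as Nr1d1. Ciart, for example, was at 1.84, 2.12 and 0.81 with AOS against 0.33 and 0.44, with 18.01 in control replicate 3. Tef, another D-box activator (chromosome 15, 81802421 to 81826863, plus strand), was at 65.37, 74.96 and 57.18 against 40.58 and 42.24, with 97.80 in control replicate 3 (log2 difference without it 0.65, adjusted p = 0.098). Per1 and Per2 differed less, at 2.88, 3.43 and 3.47 against 2.39 and 2.54 for Per1, and Per2 overlapped.

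Of the 24 clock genes tested, 18 had the 3 AOS libraries apart from control replicates 1 and 2, where 26.1% of all genes did. In 10 of the 18 AOS was the higher, and in 9 of these (90%) control replicate 3 was above every AOS library, against 61.3% of the 1435 such genes among all tested. In the 8 where AOS was the lower, control replicate 3 was below every AOS library in 3 (37.5%), against 18.4% of 1711. Counted at an unadjusted p under 0.05, the 13 core genes had 0 higher and 3 lower with all controls, and 5 higher and 5 lower without control replicate 3. The 11 output genes tested had 0 higher and 2 lower, then 3 higher and 1 lower. Over all genes 2.56% were higher and 10.1% lower, then 4.33% and 4.34%.

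Cry1, a core repressor (chromosome 10, 85131700 to 85185064, minus strand), was a clock gene whose difference hardly moved with control replicate 3. It was at 0.95, 0.89 and 0.90 with AOS and at 3.84, 2.55 and 2.79 in the controls, with no overlap. Its log2 difference was -1.07 (limma adjusted p = 0.0876), and -1.12 without control replicate 3 (adjusted p = 0.152). Cry1 was at 1.92 to 2.43 in the HFD group and 0.73 to 1.35 in HFD+AOS, and the 6 transplant libraries lay between 0.89 and 2.68, with both transplants overlapping both of these groups. Nfil3, a D-box repressor, was at 4.73, 3.50 and 6.84 against 10.48, 9.07 and 3.04, the order of Arntl.

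**Figure D4:**
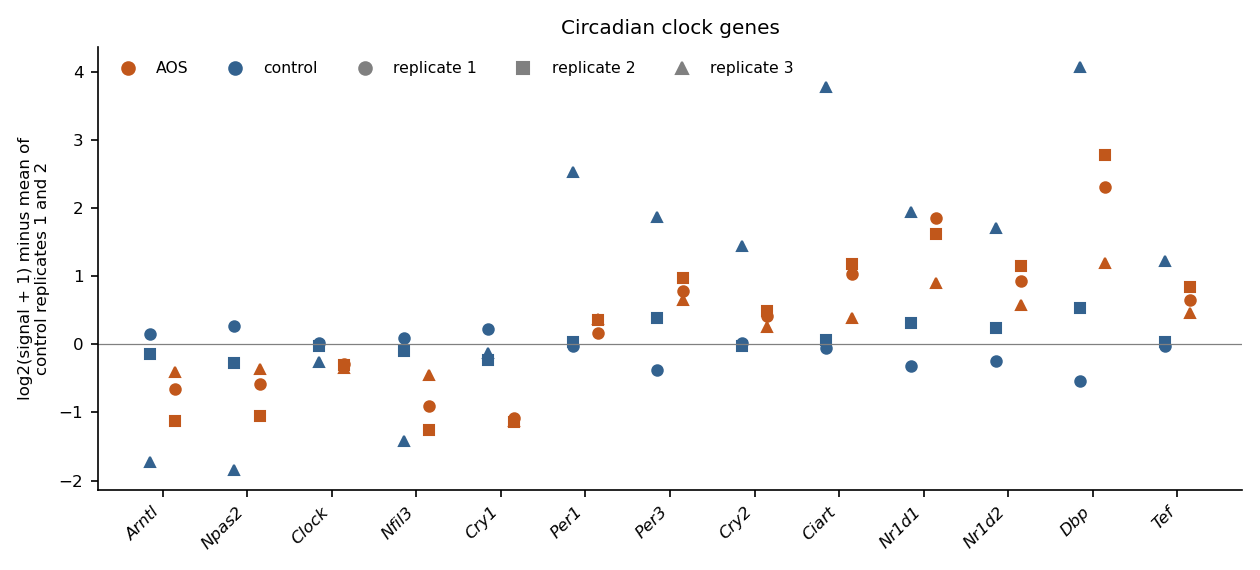
Log2(signal + 1) of 13 clock genes in each control (blue) and AOS (orange) library, less the mean of control replicates 1 and 2 for that gene. For Dbp, Nr1d2, Tef, Ciart and Per3 the AOS points lie between control replicates 1 and 2 and control replicate 3 (blue triangle), and for Cry1 all 3 AOS points lie below all 3 controls.

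The clock works through short elements near the start of its genes, and windows that hold one are shown for 5 of the genes described above. A search after the data had been seen looked on both strands for CACGTG (E-box, the site of the Arntl and Clock pair), for TTACGTAA or TTATGTAA (D-box, the site of Dbp, Tef and Nfil3) and for TAGGTCA or TGGGTCA (the site of the REV-ERB receptors). No motif of one kind contains another. The windows are the 250 bases before the start in RefSeq on GRCm38.p6, which listed 21 of the 25 clock genes in 34 windows. E-boxes were in 8 of the 34 windows (23.5%), in 7 genes, against 6.02% of 32851 windows of all genes and 8.26% of 12186 windows of the genes tested. D-boxes were in 1 window (2.94%, against 0.931% and 0.64%) and the receptor element in 1 (2.94%, against 5.38% and 4.46%). The sequences run 5′ to 3′ on the strand of the gene, with the matches in capitals. Ciart has 3 E-boxes, on chr3:95882229-95882478, minus strand; Cry1 has 1 on chr10:85185055-85185304, minus strand, and Tef 1 on chr15:81802423-81802672, plus strand. A second Tef window (chr15:81811164-81811413, plus strand) and 1 of the Per1 windows (chr11:69098699-69098948, plus strand) also hold 1 E-box each and are not shown. Per3 has 2 D-boxes on chr4:151044666-151044915, minus strand, and Nfil3 has 1 receptor element on chr13:52981040-52981289, minus strand.
Ciart: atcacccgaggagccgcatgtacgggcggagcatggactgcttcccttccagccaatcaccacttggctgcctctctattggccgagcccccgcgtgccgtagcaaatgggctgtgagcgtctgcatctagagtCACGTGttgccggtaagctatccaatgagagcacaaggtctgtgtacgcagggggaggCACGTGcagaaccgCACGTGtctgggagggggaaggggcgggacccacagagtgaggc
Cry1: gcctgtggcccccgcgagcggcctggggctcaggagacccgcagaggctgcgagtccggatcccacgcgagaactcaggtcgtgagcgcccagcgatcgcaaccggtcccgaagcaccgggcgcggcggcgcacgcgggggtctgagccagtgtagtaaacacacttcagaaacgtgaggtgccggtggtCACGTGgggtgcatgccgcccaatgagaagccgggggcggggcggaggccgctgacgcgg
Tef: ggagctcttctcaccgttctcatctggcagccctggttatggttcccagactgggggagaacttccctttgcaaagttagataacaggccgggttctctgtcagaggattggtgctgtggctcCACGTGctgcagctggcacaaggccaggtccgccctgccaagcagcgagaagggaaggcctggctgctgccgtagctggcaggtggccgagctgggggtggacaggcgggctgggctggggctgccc
Per3: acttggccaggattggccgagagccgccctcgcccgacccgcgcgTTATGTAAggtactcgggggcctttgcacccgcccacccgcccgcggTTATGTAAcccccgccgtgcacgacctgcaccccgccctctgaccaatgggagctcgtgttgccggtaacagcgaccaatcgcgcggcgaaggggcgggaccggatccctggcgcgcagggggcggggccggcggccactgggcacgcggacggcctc
Nfil3: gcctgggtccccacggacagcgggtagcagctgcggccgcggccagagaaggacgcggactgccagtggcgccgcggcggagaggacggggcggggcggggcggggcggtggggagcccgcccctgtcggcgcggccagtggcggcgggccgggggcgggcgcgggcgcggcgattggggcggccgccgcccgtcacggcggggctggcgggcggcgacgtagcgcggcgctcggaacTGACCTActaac
A match in these windows is a description of letters, not of binding. Ciart and Tef, with E-boxes, were higher with AOS than in control replicates 1 and 2, and Cry1, also with an E-box, was lower than in all 3 controls. The windows of Arntl, Npas2, Dbp, Nr1d1, Nr1d2 and Cry2 held no match to any of the motifs.

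Markers of the distal nephron were lower with AOS in most members, and part of that came with control replicate 3. Of 15 markers of the distal tubule and the loop, 0 passed, 4 had an unadjusted p under 0.05 and all 4 were lower, and the median log2 difference was -0.32, against -0.09 for all genes. Leaving that library out gave 2 lower and a median of -0.07, against -0.01. Of the 15 differences, 1 was positive with it and 6 without it, where 27.1% and 46.3% of all genes were. At an unadjusted p under 0.05, 10.1% and then 4.34% of all genes were lower. Egf, the growth factor of the distal nephron (chromosome 3, 129677565 to 129755316, minus strand), was at 220.12, 191.27 and 184.70 with AOS and at 251.43, 274.25 and 324.91 in the controls. Its groups did not overlap, and its difference went from -0.51 to -0.40 without control replicate 3 (limma adjusted p = 0.27 and 0.393). Calb1, the calcium buffer calbindin, was at 110.20, 107.26 and 110.73 against 177.12, 127.59 and 350.65 (log2 difference -0.86, and -0.46 without control replicate 3). The potassium channel Kcnj1 and the kinase Wnk1 also had every AOS library below every control. That order held in 4 of the 15 genes, and in 10.1% of all genes.

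Of 11 collecting duct genes tested, 0 passed, 5 were lower and 0 higher at an unadjusted p under 0.05, and 3 were lower without control replicate 3. Over all genes the shares lower were 10.1% and 4.34%. The 3 subunits of the epithelial sodium channel were those 3. Scnn1a was at 37.64, 37.84 and 38.13 with AOS and at 53.64, 39.30 and 94.51 in the controls, so that control replicate 2 was almost at the level of AOS. Scnn1b (12.55, 12.91 and 13.21 against 18.56, 13.23 and 33.57) had the same order. Scnn1g was at 9.46, 8.72 and 7.65 against 12.54, 9.18 and 22.64, and there control replicate 2 lay inside the AOS range. Their limma adjusted p was 0.345 to 0.351, and 0.48 to 0.53 without control replicate 3. Of 10 intercalated cell genes, which secrete acid or base, 5 were lower and then 1 without control replicate 3, Rhcg, an ammonia channel, at 26.37, 24.41 and 25.15 against 29.86, 28.40 and 48.61.

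The summed signal of the tubule injury list was highest in control replicate 3 (3122, against 492.9 to 813.3 in the other 5 libraries). Of 10 tubule injury genes tested, 4 were lower at an unadjusted p under 0.05 with a median log2 difference of -0.84, and without control replicate 3 it was 1 with a median of -0.12. Over all genes 10.1% and then 4.34% were lower. The remaining gene was Cdkn1a, whose difference went from -2.01 to -1.05. Havcr1, the standard marker of proximal tubule injury, was at 2.27, 1.63 and 2.06 with AOS, 2.03 and 1.85 in control replicates 1 and 2, and 19.36 in control replicate 3. Lcn2 was at 3.57, 3.41 and 2.06, then 4.99 and 2.72, then 35.12. Spp1, osteopontin, was at 325.12, 284.84 and 276.51 against 306.80, 604.04 and 2434. The podocyte list had medians of -0.30 and 0.12 in the 2 fits, MHC class II -0.56 and 0.02, and the immediate early genes -0.35 and 0.06. In each of these the sign turned with control replicate 3, and 0 of their members passed.

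Genes of fat metabolism were mostly lower with AOS than in control replicates 1 and 2. Of 16 fatty acid synthesis genes, 8 had the AOS libraries below both and 0 above both. Of the 12031 genes tested, 1711 were below both and 1435 above both, together 26.1%. Against all 3 controls, 2 of the 16 had every AOS library below and 0 above, where 10.1% and 3.07% of all genes did. At an unadjusted p under 0.05, 3 were lower and 0 higher in either fit, against 10.1% and then 4.34% of all genes lower. In both fits 0 passed. Scd1, a desaturase, was at 42.64, 41.95 and 37.08 with AOS, at 82.10 and 56.02 in control replicates 1 and 2 and at 27.82 in control replicate 3. Fasn, the fatty acid synthase, was at 12.87, 14.89 and 16.16, then 28.14 and 22.3, then 7, and Thrsp at 6.90, 13.82 and 14.94, then 39.93 and 22.76, then 6.09. Fat cells make these enzymes too, and the fat gene sum was 802 and 412.5 in control replicates 1 and 2 and 184.7 in control replicate 3. In AOS replicate 3, whose fat gene sum was 818.3, Scd1 was the lowest of the 3 AOS libraries and Fasn the highest. The part of fat tissue in these differences was not tested.

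Among 25 genes of fatty acid oxidation and its PPAR regulators, 0 passed, 6 were lower and 0 higher at an unadjusted p under 0.05, and 4 were lower without control replicate 3, against 10.1% and 4.34% of all genes. Ppard, the receptor PPAR delta (chromosome 17, 28232700 to 28301474, plus strand), was at 29.36, 16.40 and 27.74 with AOS, at 54.70 and 61.63 in control replicates 1 and 2 and at 9.47 in control replicate 3. Its difference was -1.25 without control replicate 3 (limma adjusted p = 0.098) and -0.42 with it (adjusted p = 0.67), the order that Arntl had. The enzymes of oxidation differed less. Cpt2, which brings fatty acids into mitochondria, was at 71.19, 60 and 64.89 against 78.99, 69.82 and 82.44 (log2 differences -0.23 and -0.19). Hadha, of the trifunctional protein, was at 55.26, 49.95 and 52.76 against 61.35, 58.00 and 92.34, with no overlap.

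Genes of amino acid breakdown at an unadjusted p under 0.05 were all higher with AOS. Of 19 genes tested, 0 passed, 4 were higher and 0 lower at that limit, and 3 were higher and 0 lower without control replicate 3. Over all genes the shares higher were 2.56% and 4.33%. Agxt2, a mitochondrial aminotransferase that clears dimethylarginine, was at 51.30, 47.76 and 60.80 with AOS and at 36.41, 41.12 and 36.66 in the controls. The groups did not overlap, control replicate 3 lay with the other controls, and the difference was 0.47 (limma adjusted p = 0.213) and 0.44 without that library (adjusted p = 0.251). Ass1, which makes the precursor of arginine, was at 2254, 2408 and 2179 against 1815, 2022 and 1117, and its difference went from 0.51 to 0.25. The list medians were 0.06 and 0.08, against -0.09 and -0.01 for all genes.

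Of 17 organic ion transport genes tested, 1 had every AOS library above every control and 1 had every AOS library below. Of 12 genes tested for bile acid and microbial metabolite sensing, 0 were above and 1 was below. Over all genes the shares were 3.07% above and 10.1% below. The 2 genes below were Slc22a5 and Slc10a2. Slc22a5, the carnitine carrier, was at 62.69, 62.45 and 65.07 with AOS and at 74.06, 74.93 and 85.94 in the controls (log2 differences -0.30 and -0.23, limma adjusted p = 0.24 and 0.317). Slc10a2, the bile acid carrier of tubule and ileum, was at 23.24, 16.01 and 21.88 against 33.19, 27.70 and 26.09 (-0.50 and -0.57, adjusted p = 0.345 and 0.348). It was the only 1 of 12 tested genes on the list of bile acid and microbial metabolite sensing with an unadjusted p under 0.05. Akr1b3, the aldose reductase that makes sorbitol, was at 79.38, 117.70 and 100.65 against 76.09, 79.45 and 74.84, so that AOS replicate 1 lay inside the control range. Of 13 genes of the renin-angiotensin system and vascular tone, 1 was higher (Ace) and 1 lower (Klk1) at an unadjusted p under 0.05, where 2.56% and 10.1% of all genes were. Leaving control replicate 3 out gave 3 higher and 0 lower, against 4.33% and 4.34%.

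**Figure D5:**
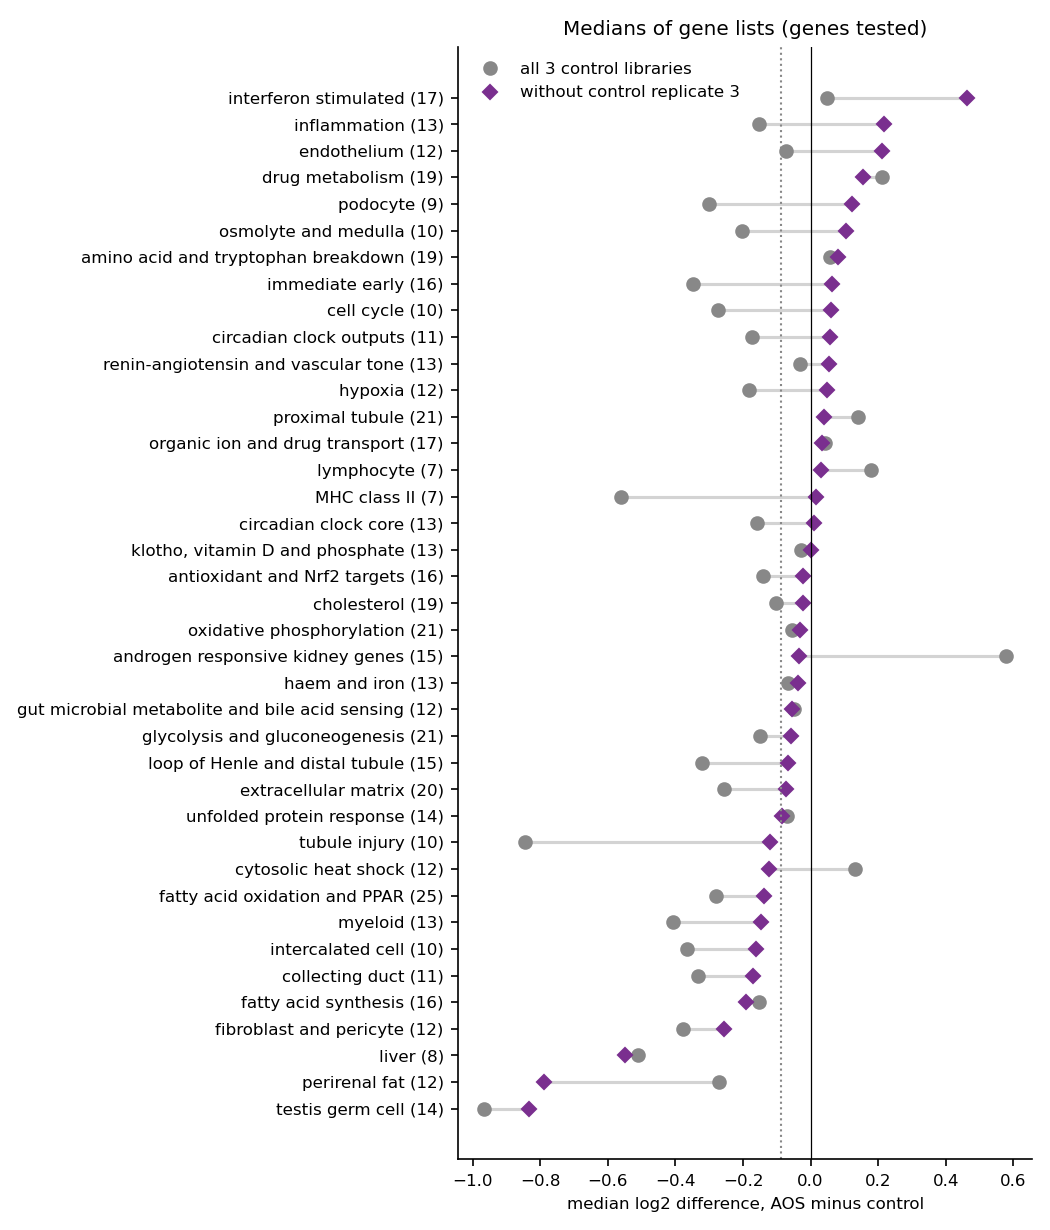
Median log2 difference, AOS minus control, over the tested members of each gene list with at least 7 genes tested (number in brackets), with all 3 control libraries (grey) and without control replicate 3 (purple); the dotted line marks the median of all genes with the 3 controls (-0.09). Among these lists, tubule injury, androgen responsive and MHC class II genes move most between the fits, and the germ cell list is lowest in both.

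The last comparison asked whether the AOS difference was the same on and off the high fat diet. The interaction, the HFD+AOS minus HFD difference less the AOS minus control difference, called 0 of 12031 genes in limma (0%), with a smallest adjusted p of 0.265, while 1490 genes (12.4%) had an unadjusted p under 0.05. Without control replicate 3 it called 0, with a smallest adjusted p of 0.307 and 1175 genes (9.77%). For Mov10 the interaction was -0.14 (SE 0.11, adjusted p = 0.586), and for Dap it was 0.27 (SE 0.15, adjusted p = 0.433). With 3 libraries a group, a value that misses the threshold does not show that the differences were alike.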

How the data were processed

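The treatment labels place the 18 kidney mRNA libraries in 6 groups of 3. Frozen tissue was extracted with Trizol and a column kit and made into Illumina libraries, per the labels' protocols. The submitters' processing notes name Bowtie 0.12.2 and the build mm10. For counting, annotation and normalization, the steps are not given in sources used here. A single table of normalized signal per gene symbol was deposited, with no unit. Leaving out 26 date-like symbols and the second copy of 1 symbol reduced its 19545 entries to 19518 genes. GENCODE M21 (GRCm38) held 97.3% of these and gave the coordinates. Reads of near-identical copies cannot be assigned with certainty.

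Genes with a signal of at least 1 in 3 or more of the 18 libraries were tested (12031). The values log2(signal + 1), which understate the change of low genes, were fitted in 1 linear model of 6 groups (12 residual degrees of freedom) with limma 3.58.1 in R 4.3.3, with trend and robust estimation. Tests were two-sided with Benjamini-Hochberg adjustment at 0.05, and all adjusted p-values are from limma. The fit without control replicate 3 had 17 libraries and 11 residual degrees of freedom. An exact permutation test of 3 against 3 cannot give p below 0.1, so none was used. Since the table holds no counts, a gene at 0 is called listed at 0. Relative depth was read from the most common ratio of low values between a library and AOS replicate 1. On simulated data for this comparison with 12031 genes, the test found 72% of 50 changed genes at a log2 size of 0.5, 96% at 1 and 100% at both 2 and 3. It made 8 false calls. The changed genes were drawn from well-expressed ones and the simulated spread held no outlying library.

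The comparison, the gene lists and the rules were chosen with earlier results of these data known. Fewer than 10 genes passed, so the rule for naming genes gave the 12 largest differences in each direction (8 without control replicate 3) among genes with unadjusted p under 0.05, no overlap between groups and a mean of at least 1. Predicted genes and genes of other tissues were passed over, and some genes that the rules select are not reported here. From each list, 4 members or fewer were eligible, by smallest p. Further clock, injury and synthesis genes, and the HFD values of Mov10, Dap, Cyp4a12b and Cry1, were chosen after their values were seen. Alternatives were another pseudocount, other filters, quantile normalization, plain estimation of the spread, array weights, a fit of the 6 libraries alone, the replicate number as a block and each library left out. A batch term for protamine and transition protein transcripts was added after the data were seen.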

Additional observations from a re-analysis of the deposited data

How the results depend on the processing

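The 4 genes past the threshold were 3 with a pseudocount of 0.1, 6 without trend and robust estimation and 5 in a fit of the 6 libraries alone (Prm1, Prm2, Tnp1, Tnp2 and Oaz3). With no filter on low values 149 genes passed (9 higher, 140 lower), of which 100 were listed at 0 in every AOS library and 21 were on the germ cell list. The count was 1 with a signal of at least 5 in 3 libraries, 1 after quantile normalization and 1 with array weights, Mov10 each time. With the protamine and transition protein batch term, where HFD replicates 1 to 3 set the term, it was 0 (smallest adjusted p = 0.177, 565 genes with an unadjusted p under 0.05). Under it the log2 difference was 0.62 for Mov10 and -0.92 for Dap, and -0.39 for Prm1 and -0.43 for Oaz3. Prm1 is among the genes that define the term, so its smaller difference was fixed in advance and tests nothing. The term also carried other features of HFD replicate 3: Hdc, at 159.99 in that library, went from -3.76 to -10.30. Leaving out 1 library gave 0 to 30 genes. It was 0 without AOS replicate 1, 2 or 3 or control replicate 1 or 3, and 30 (4 higher, 26 lower, all 4 among them) without control replicate 2. Without control replicate 3, 0 genes passed, and 121 did with no filter (9 higher, 112 lower), 2 after quantile normalization (Mov10 and Akap7, both higher), 5 in the fit of these libraries alone (all lower) and 3 with array weights (Mov10, Akap7 and Tdp2, all higher). Leaving out 1 more library gave 0 to 1. Members of the gene lists past the threshold were 2 with control replicate 3 and 0 without it. The interaction kept 0 genes after quantile normalization (smallest adjusted p = 0.186). For the log2 differences of the genes past the threshold and those given by the naming rule, no alternative turned a direction. In the 18-library fit 42 of these single-gene values lost the call and 5 gained it, with the causes not tested. Other genes named above were followed only with and without control replicate 3, and several clock genes changed sign between those fits. The planned batch term on the sum of the whole germ cell list was not run, since all 18 libraries exceeded its limit of 5. Counting error for low values cannot be given, since read numbers are unknown.

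The replicate number as a block gave 1 gene in the 18-library fit (Dap, adjusted p = 0.0112) and 0 in the fit of the 6 libraries alone (smallest adjusted p = 0.127). Deviations of same-numbered AOS and control libraries from their group means correlated across genes at -0.13, 0.05 and -0.13, and not every library correlated best with its own number. The libraries share only a number.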

Other observations

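Among genes not described above, those with the largest differences when control replicate 3 was left out were mostly ones where that library lay beyond AOS. Tdp2, a DNA repair enzyme, was at 11.91, 13.07 and 16.81 with AOS, at 5.92 and 6.45 in control replicates 1 and 2 and at 21.42 in control replicate 3 (log2 difference without it 1.04, limma adjusted p = 0.0936). Gmnn, which blocks renewed licensing of DNA replication, was at 5.45, 4.29 and 5.48, then 1.6 and 2.22, then 14.23 (1.06, adjusted p = 0.114). Igfbp1, a binding protein of insulin-like growth factors, had the same order, at 5.26, 3.83 and 2.83, then 0.79 and 1.47, then 11.60. Cd8a, a marker of cytotoxic T cells on the lymphocyte list, was higher with AOS than in all 3 controls, at 1.79, 3.13 and 1.87 against 0.80, 0.50 and 1.44 (limma adjusted p = 0.355, and 0.292 without control replicate 3). The 12 genes of that list summed to 45.83, 32.24 and 22.04 with AOS and to 24.78, 40.03 and 18.62 in the controls, which overlap. Of its 7 genes tested, 5 had a positive log2 difference, and 4 did without control replicate 3, where 27.1% and 46.3% of all genes did.

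In the other direction, the major urinary protein genes Mup9, Mup10 and Mup2, near-identical copies made mostly in liver, were near 0 with AOS (at most 0.64). They were at 18.77, 15.79 and 8.34 in control replicate 1, at 1.64, 1.09 and 1.63 in control replicate 2 and at most 0.13 in control replicate 3. Their difference therefore lay mainly in 1 library. The 12 liver genes summed to 71.21, 17.1 and 38.47 with AOS and to 57.48, 23.26 and 39.94 in the controls. All 12 endothelial genes had a positive log2 difference without control replicate 3 (median 0.21) and 1 of 12 had one with it (median -0.07). Over all genes tested 46.3% and 27.1% were positive in these fits. Of the 12, 0 had an unadjusted p under 0.05 in either fit. Emcn, for example, was at 44.49, 37.41 and 34.31 with AOS and at 23.90, 43.57 and 55.28 in the controls, so that control replicate 1 alone was below AOS.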
